A study of Mus musculus with 2 samples.

Results

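Chemokines are small, mostly secreted proteins that guide the movement of cells, and the 10 genes described here, *Ccl2*, *Ccl3*, *Ccl4*, *Ccl7*, *Ccl12*, *Ccl24*, *Cxcl10*, *Cxcl12*, *Cxcl14* and *Cxcl16*, encode 10 of them. They were chosen by gene symbol in both count matrices, where they are 10 of 32285 genes, and each was present in both. The data are single-cell RNA-seq of the striatum, the input nucleus of the basal ganglia, from untreated adult mice. The labels give an age of 8 to 10 weeks, a cell fraction enriched for glia, and the strain as C57/Bl6J in one field and C57BL/6NTac in another. There is 1 group with 2 libraries (library 1 and library 2), no treated or mutant animals, and no statement of which mice went into which library. The study's methods describe a dissociation that favours non-neuronal cells, with a transcription inhibitor, actinomycin D, in the solutions. The protocol in the labels does not mention the inhibitor, and the methods give a younger age range than the labels. The libraries held 44597660 and 37982720 unique molecular identifiers (UMIs, each standing for 1 captured transcript), and after filtering 6802 and 5205 cells were analysed. They shared 9 cell barcodes.

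Chemokines act through G protein-coupled receptors on the cells they attract, and some are held on vessel walls or cell membranes. In the brain, CXCL12 is known from vessels and the meninges and guides CXCR4-bearing cells, whereas CCL2, CCL7 and CCL12 are ligands of CCR2 on monocytes. CCL3 and CCL4 attract several kinds of leukocyte. CCL24 is a ligand of CCR3 on eosinophils, CXCL10 of CXCR3 on T cells, and CXCL16 is a transmembrane ligand of CXCR6. CXCL14 has no receptor that is generally agreed on.

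Cells were grouped by expression without using chemokine genes, and a cluster was named only from a list of marker genes. The 11 classes to which both libraries gave at least 20 cells were astrocyte-like, OPC-like (oligodendrocyte precursor), oligodendrocyte-like, progenitor-like, neuroblast-like, neuron-like, endothelial-like, mural-like, fibroblast-like, microglia-like and macrophage-like. An erythroid-like class (85 and 11 cells) was too small in library 2 to be tested. No class was missing a marker of its own list in both libraries. The smallest were the fibroblast-like (35 and 21 cells) and macrophage-like (91 and 76 cells) classes, against 1122 and 1024 microglia-like and 1206 and 973 astrocyte-like cells. The macrophage-like class was a mixture. Lymphocyte markers summed to 55.2 CPM (the usual scaling of counts to a common total) in its library 1 and 892 CPM in its library 2. Neutrophil markers summed to 757 and 0 CPM, and monocyte markers to 93.6 and 473 CPM. All lymphocyte and neutrophil markers were at 0 in microglia-like cells, where monocyte markers summed to 4.93 and 4.94 CPM. Levels below are in CPM of the UMIs of a class in 1 library, and each log2 difference is given with an SE after ±. The prior count in edgeR shrinks these differences towards 0, most where a class holds few UMIs. Each SE was worked back as the size of the shrunken difference over the square root of the test's F, so it is approximate and can be too small for such genes. UMIs from the 3′ end count molecules and do not scale with transcript length. How well each gene was captured was not measured, so levels of different genes can be set side by side only roughly.

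On the GRCm38 (mm10) assembly, 6 members lie on chromosome 11. *Ccl2* (chr11:82035571-82037453), *Ccl7* (chr11:82045712-82047525) and *Ccl12* (chr11:82101845-82103400) follow each other on the plus strand. *Ccl3* (chr11:83647844-83649355, minus strand) and *Ccl4* (chr11:83662584-83664683, plus strand) are neighbours, and *Cxcl16* lies at chr11:70453983-70459984. *Ccl24* (chr5:135569937-135573049) and *Cxcl10* (chr5:92346638-92348889) are on chromosome 5, *Cxcl12* at chr6:117168535-117181367 and *Cxcl14* at chr13:56288643-56296551. *Ccl2*, *Cxcl10* and *Cxcl16* overlap a gene of the opposite strand (Gm17268, Art3 and Zmynd15), and the strand setting of the counting is not given in the sources used here.

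Promoter sequences from RefSeq (GRCm38.p6) were at hand for 5 of the 10 genes. Those of 3 genes are shown because they belong to the vascular member, the astrocyte member and the member that was nearly silent outside single cells: the 250 bases before the start of *Cxcl12* (chr6:117168285-117168534, plus strand), *Cxcl14* (chr13:56296552-56296801, minus strand) and *Cxcl10* (chr5:92348890-92349139, minus strand). Each reads 5′ to 3′ along the gene. Capitals mark matches to 4 motifs searched on both strands: the kappaB consensus, TATAAA (known near many start sites), TGACTCA (the AP-1 site) and the core of the interferon-stimulated response element (ISRE).
Cxcl12: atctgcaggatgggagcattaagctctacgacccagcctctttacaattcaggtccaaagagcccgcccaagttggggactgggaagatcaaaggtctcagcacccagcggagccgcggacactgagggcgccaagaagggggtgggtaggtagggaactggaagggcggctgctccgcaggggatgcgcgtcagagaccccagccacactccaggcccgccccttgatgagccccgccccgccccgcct
Cxcl14: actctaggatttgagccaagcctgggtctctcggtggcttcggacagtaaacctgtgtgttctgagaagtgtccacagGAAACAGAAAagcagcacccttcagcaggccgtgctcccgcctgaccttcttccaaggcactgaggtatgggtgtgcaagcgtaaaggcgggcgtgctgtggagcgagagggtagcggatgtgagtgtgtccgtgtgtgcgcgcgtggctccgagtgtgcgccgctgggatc
Cxcl10: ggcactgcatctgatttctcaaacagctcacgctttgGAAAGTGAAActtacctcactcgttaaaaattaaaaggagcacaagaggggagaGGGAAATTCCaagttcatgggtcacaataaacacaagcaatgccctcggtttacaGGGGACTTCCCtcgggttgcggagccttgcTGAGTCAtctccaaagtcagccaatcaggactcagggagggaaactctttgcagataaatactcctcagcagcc
*Cxcl10* held matches to the kappaB consensus at bases −159 to −150 and −104 to −94 (the latter as overlapping matches), TGACTCA at −74 to −68 and the ISRE core at −213 to −204. *Cxcl14* held the ISRE core at −172 to −163, *Cxcl12* none of the 4, *Ccl12* TATAAA at −31 to −26, and *Ccl3* none. Of 32851 promoter windows, 7.25% held the kappaB consensus, 12.4% TATAAA, 4.46% TGACTCA and 2.98% the ISRE core. The 5 genes without a promoter sequence at hand, *Ccl2*, *Ccl4*, *Ccl7*, *Ccl24* and *Cxcl16*, were not searched.

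Across classes, the 10 chemokines fell into a vascular gene (*Cxcl12*), an astrocyte gene (*Cxcl14*) and 8 genes whose highest or second-highest mean level was in macrophage-like cells. For 6 of the 10 members (*Cxcl12*, *Cxcl14*, *Ccl3*, *Ccl7*, *Ccl12* and *Ccl24*) the class with the highest mean was above every other class in edgeR's quasi-likelihood test (adjusted p under 0.05 in each pair). The background was 33.4%, or 5062 of 15173 genes tested. *Ccl2*, *Ccl4*, *Cxcl10* and *Cxcl16* did not meet this condition. These p-values rest on how class values scatter between the 2 libraries, over all classes, once the shift common to a library is removed. Because the labels do not separate mice, they do not measure a spread between mice.

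**Figure D1:**
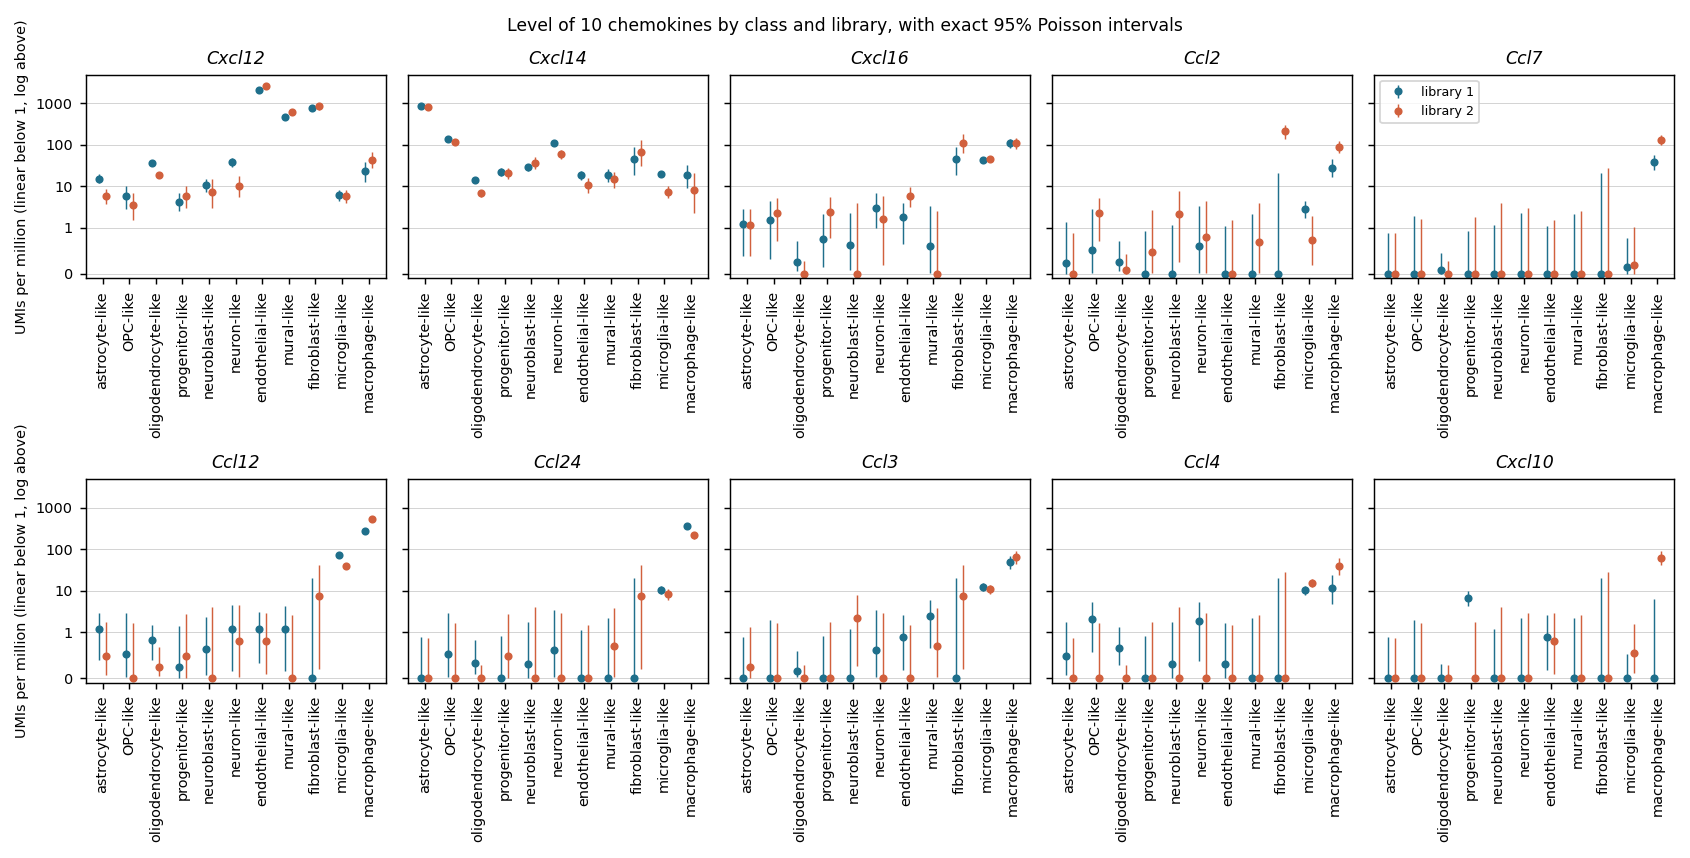
Level of each chemokine (CPM of the UMIs of a class, linear below 1 and logarithmic above) in the 11 classes, with library 1 in blue and library 2 in orange and exact 95% Poisson intervals that cover counting error only. *Cxcl12* was highest in endothelial-like cells, *Cxcl14* in astrocyte-like cells, and *Ccl7*, *Ccl12* and *Ccl24* in macrophage-like cells in both libraries.

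*Cxcl12* reached the highest CPM of the members. It stood at 2071 and 2604 CPM in endothelial-like cells of libraries 1 and 2 (6959 and 6380 UMIs), at 799 and 854 CPM in fibroblast-like cells (143 and 113 UMIs), and at 478 and 637 CPM in mural-like cells (801 and 911 UMIs). In these sums of whole classes, the 3 classes of the vessel wall and its coverings did not overlap with the other 8, whose values ran from 3.56 to 44.0 CPM. Endothelial-like cells were above fibroblast-like cells by 1.87 ± 0.33 on the log2 scale (SE; adjusted p = 0.00028; 15.2% of genes tested were higher in this pair) and above mural-like cells by 2.17 (adjusted p = 2.2e-05). Fibroblast-like and mural-like cells did not differ beyond the spread between libraries (0.30 ± 0.34, adjusted p = 0.66), and mural-like cells were above the next class, macrophage-like cells, by 3.91 ± 0.43 (adjusted p = 4.8e-07). The mural-like values rested on a subcluster of 64 cells in which endothelial markers were also high. Without it and the macrophage-like subclusters with few macrophage markers, mural-like cells were at 97.1 and 128 CPM. They were then above macrophage-like cells by 2.23 ± 0.53 (adjusted p = 0.0026) and their difference from fibroblast-like cells was −2.68 ± 0.35 (adjusted p = 1.7e-05), so that they were below them.

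At least 1 *Cxcl12* UMI was seen in 73.6% and 80.4% of endothelial-like cells (median 2680 and 3248.5 UMIs per cell), against 3.39% and 2.64% of the deeper microglia-like cells (median 6921 and 5498 UMIs). After thinning each cell to 1000 UMIs, which kept 610 of 807 and 483 of 598 endothelial-like cells, the shares were 65.4% and 67.9%, against 0.588% and 0.517% of the 1020 and 967 microglia-like cells kept. Its level was between 1700 and 3071 CPM in all 7 endothelial-like subclusters, and 2350 CPM in the one with arterial markers. No single cell dominated, the top cell holding 111 of 6959 and 71 of 6380 UMIs.

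Within mural-like cells *Cxcl12* was uneven. Of 1712 UMIs in both libraries, 1488 (86.9%) came from 64 cells in which endothelial and mural markers were both high (15493 and 14097 CPM), with a median of 15505.5 UMIs per cell. The level was 1379 CPM there, 252 CPM in 156 pericyte-like cells, 155 CPM in another subcluster of low depth and 21.1 CPM, within the range of the other 8 classes, in 110 smooth muscle-like cells, the contractile cells of arteries. The *Cxcl12* level of the whole mural-like class was 23.1% and 24.5% of the endothelial-like level. The median endothelial marker stood there at 23.6% and 22.6% of its endothelial-like level. Which cell type the *Cxcl12* of the 64 cells came from was not tested. In fibroblast-like cells the same ratio was 38.6% and 32.8% for *Cxcl12* against 1.88% and 1.41% for the median endothelial marker.

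*Cxcl12* was low in glia, but oligodendrocyte-like cells held 459 and 247 UMIs, or 37.6 and 19.2 CPM. This was 1.81% and 0.736% of the endothelial-like level, above the range of the 6 endothelial markers there (0.248% to 0.417% and 0.0730% to 0.187%). Astrocyte-like cells were at 15.4 and 5.70 CPM, OPC-like cells at 5.70 and 3.56 CPM, and microglia-like cells at 6.19 and 5.85 CPM. A cluster left unnamed, led by 9630013A20Rik, Bmp4, Fyn and Gpr17, was at 110 and 123 CPM and was outside the tests.

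*Cxcl14* marked astrocyte-like cells, at 870 and 840 CPM (3608 and 3540 UMIs). OPC-like cells came second, at 138 and 117 CPM, and neuron-like cells next, at 109 and 59.7 CPM. The fibroblast-like class was at 44.7 and 68.0 CPM on 8 and 9 UMIs, and the other 7 classes lay between 6.75 and 37.4 CPM. Astrocyte-like cells were above OPC-like cells by 3.23 ± 0.26 on the log2 scale (adjusted p = 4.3e-09; 21.7% of genes tested were higher in this pair), and no other class overlapped with them. OPC-like and neuron-like cells did not differ beyond the spread (adjusted p = 0.18).

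At least 1 *Cxcl14* UMI was found in 63.3% and 70.5% of astrocyte-like cells (median 1909.5 and 2839 UMIs per cell), 43.0% and 44.2% of OPC-like cells (median 6974.5 and 7211) and 12.3% and 7.14% of oligodendrocyte-like cells (median 11298 and 12138.5). Thinned to 1000 UMIs, the shares were 47.0% and 44.7%, 12.4% and 10.8%, and 1.56% and 0.96% in the same order, with 963 and 872, 290 and 334, and 1023 and 1042 cells kept. In the deeper astrocyte-like cluster the gene was seen in 99.3% and 99.1% of cells, at 1028 and 930 CPM. The shallower cluster stood at 619 and 536 CPM, in 52.2% and 48.5% of cells. The OPC-like level of *Cxcl14* was 15.8% and 13.9% of the astrocyte-like level, above the highest of 8 astrocyte markers there (9.83% and 8.26%). In oligodendrocyte-like cells it was 1.65% and 0.803%, within the markers' range. The top cell held 27 of 3608 and 22 of 3540 UMIs.

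**Figure D2:**
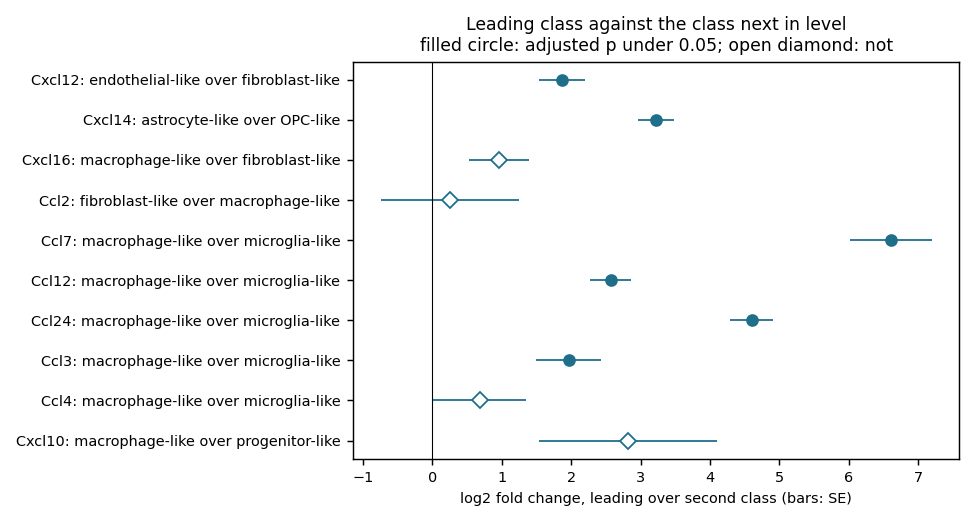
Difference on the log2 scale between the class with the highest mean level and the class next to it for each chemokine. The differences are shrunk by edgeR's prior count. Bars show an approximate SE, worked back from the difference and the F of the quasi-likelihood test. Filled circles have an adjusted p under 0.05 and open diamonds do not. The difference was 3.23 for *Cxcl14* and 4.60 for *Ccl24*, and 0.25 for *Ccl2*.

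*Ccl24*, an eosinophil attractant, was a macrophage-like gene in both libraries. It stood at 358 and 216 CPM there (214 and 103 UMIs) and at 10.4 and 8.23 CPM in microglia-like cells (74 and 45 UMIs), while every other class held at most 4 UMIs per library. The difference between macrophage-like and microglia-like cells was 4.60 ± 0.30 on the log2 scale (adjusted p = 5.0e-09; 6.43% of genes tested were higher in macrophage-like cells). With DESeq2 it was 4.99 with an adjusted p of 0.075, and over all alternatives the adjusted p ran from 9.0e-66 to 0.075. Endothelial-like and astrocyte-like cells were at 0 in both libraries, which put macrophage-like cells at least 271-fold and 399-fold higher, counting a class at 0 as 3 UMIs per library. The gene was found in 42.9% and 47.4% of macrophage-like cells (median 6989 and 5830 UMIs), and in 5.61% and 3.81% of microglia-like cells (median 6921 and 5498). The top macrophage-like cell held 38 of 214 and 14 of 103 UMIs. Microglia-like and fibroblast-like cells did not differ beyond the spread (adjusted p = 0.21).

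*Ccl7* was nearly confined to the same class, at 38.5 and 132 CPM on 23 and 63 UMIs. Microglia-like cells held 1 UMI in each library, oligodendrocyte-like cells 1 UMI in library 1, and the other 8 classes none. The ratio of macrophage-like to microglia-like cells, over both libraries, was 503 (exact 95% interval 135 to 4216, counting error only). The edgeR test gave 6.61 ± 0.59 on the log2 scale (adjusted p = 6.4e-06). This difference is shrunk by the prior count and lies below the interval of the ratio. With DESeq2 the adjusted p was 0.46, the highest of a range that began at 1.3e-22. *Ccl7* was at least 119-fold higher than in astrocyte-like and 80.5-fold higher than in endothelial-like cells, both at 0. It was seen in 16.5% and 17.1% of macrophage-like cells.

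*Ccl12* was shared by both myeloid classes. Macrophage-like cells stood at 269 and 530 CPM (161 and 253 UMIs) and microglia-like cells at 72.8 and 39.5 CPM (517 and 216 UMIs), and the remaining classes held between 0 and 10 UMIs per library. The values of macrophage-like cells were above those of microglia-like cells in both libraries, by 2.57 ± 0.30 on the log2 scale (adjusted p = 2.6e-06). Microglia-like cells were in turn above the fibroblast-like class (1 UMI in all) by 4.50 ± 1.04 (adjusted p = 0.0021). At least 1 UMI was seen in 30.8% and 35.5% of macrophage-like and 23.4% and 14.6% of microglia-like cells, against 0.332% and 0.206% of astrocyte-like cells. A few cells held much of it: the top cell had 42 of 161 and 50 of 253 UMIs in macrophage-like cells, and 57 of 517 and 7 of 216 in microglia-like cells. Without the *Ccl12* UMIs of the top cells the difference was 2.30 on the log2 scale (adjusted p = 4.7e-05).

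*Ccl2*, the classical monocyte attractant, was low. Macrophage-like cells held 17 and 43 UMIs (28.4 and 90.1 CPM) and microglia-like cells 20 and 4 UMIs (2.82 and 0.73 CPM). The fibroblast-like class had the highest mean, from 0 UMIs in library 1 and 28 UMIs (212 CPM) in library 2, and all 28 were in 1 cell. Fibroblast-like and macrophage-like cells did not differ beyond the spread (0.25 ± 1.00, adjusted p = 0.96; 8.14% of genes tested were higher in the fibroblast-like class), and without that cell the fibroblast-like class was at 0. Macrophage-like cells were above microglia-like cells by 4.15 ± 0.81 (adjusted p = 0.0010), and were positive in 7.69% and 15.8% of cells against 1.07% and 0.391%.

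*Cxcl16*, the membrane-bound ligand, had the same level in macrophage-like cells of both libraries, 109 and 109 CPM (65 and 52 UMIs). Fibroblast-like cells stood at 44.7 and 113 CPM on 8 and 15 UMIs and microglia-like cells at 42.5 and 44.5 CPM on 302 and 243 UMIs. Macrophage-like cells exceeded microglia-like cells by 1.06 ± 0.28 on the log2 scale (adjusted p = 0.011) but not fibroblast-like cells (0.96 ± 0.43, adjusted p = 0.13; 11.3% of genes tested were higher in macrophage-like cells of that pair). Fibroblast-like and microglia-like cells did not differ beyond the spread (adjusted p = 0.90), and microglia-like cells were above the endothelial-like class, at 1.79 and 5.71 CPM, by 3.74 ± 0.35 (adjusted p = 1.7e-08). The gene was found in 34.1% and 42.1% of macrophage-like and 20.3% and 18.8% of microglia-like cells, against 0.283% and 0% of oligodendrocyte-like cells.

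**Figure D3:**
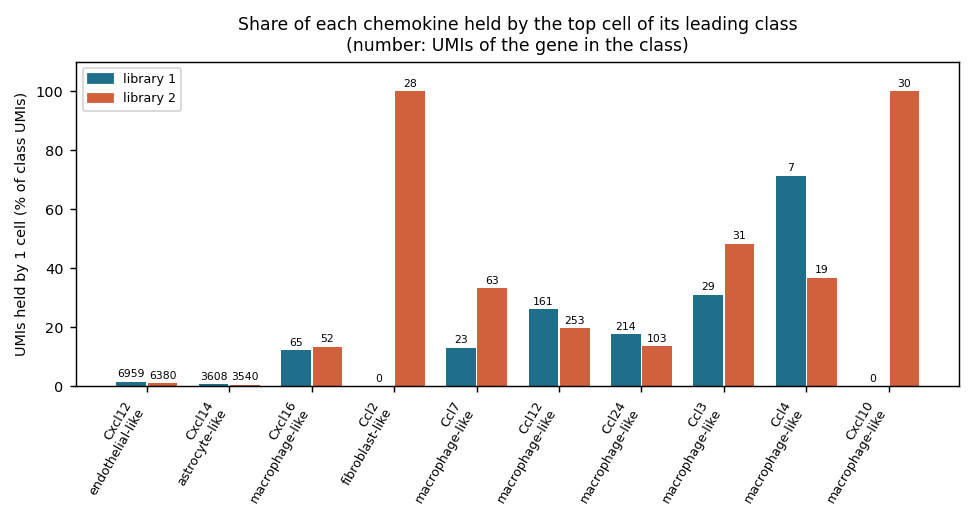
Percentage of a chemokine's UMIs in its leading class that came from 1 cell, by library (library 1 blue, library 2 orange), with the number of UMIs of that class above each bar. A single cell held 28 of 28 *Ccl2* UMIs in fibroblast-like cells and 30 of 30 *Cxcl10* UMIs in macrophage-like cells of library 2, against 111 of 6959 *Cxcl12* UMIs in endothelial-like cells of library 1.

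The macrophage-like class held 5 subclusters with different chemokines, described here without a test because the subclusters were made from the same cells. In 36 cells led by Cd209f, Lyve1 and Timd4, genes known from macrophages of brain borders, *Ccl24* was at 617 CPM and found in 34 cells, with *Ccl12* at 481, *Ccl7* at 191, *Ccl2* at 88.6 and *Ccl3* at 58.0 CPM. They held 56 of the 86 *Ccl7* UMIs. A group of 52 cells with macrophage markers (8710 CPM) that was led by oligodendrocyte genes (such as Ermn) had *Ccl12* at 438, *Ccl24* at 269, *Cxcl16* at 145 and *Ccl7* at 44.5 CPM. A group of 35 shallow cells (median 1503 UMIs) had *Ccl24* at 327 and *Ccl12* at 109 CPM.

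The other two subclusters lacked *Ccl24*. In 20 cells led by S100a9, S100a8, Retnlg and H2-Eb1, macrophage markers summed to 665 CPM against 8858 CPM in the other cells of the class. Plbd1, H2-Ab1 and Cd74 were also among the leading genes. S100a9, S100a8 and Retnlg came from library 1 alone, so the 8 cells of library 2 held none of them. Over the 20 cells *Ccl24* was at 0, *Cxcl16* at 169 CPM, and *Ccl12* at 515 CPM from 79 UMIs in 2 cells. In 24 cells with lymphocyte markers, 21 of them in library 2, *Ccl24*, *Ccl12*, *Ccl7* and *Ccl2* were at 0. They held 18 of the 26 *Ccl4* UMIs of the class, in 3 cells, and 239 of the 310 UMIs of Ccl5, a lymphocyte chemokine. Without these 2 subclusters the macrophage-like level of *Ccl24* was 393 CPM and its call against microglia-like cells held, whereas that of *Ccl3* was lost (1.46, adjusted p = 0.11) and the *Ccl4* difference changed sign to −0.86.

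**Figure D4:**
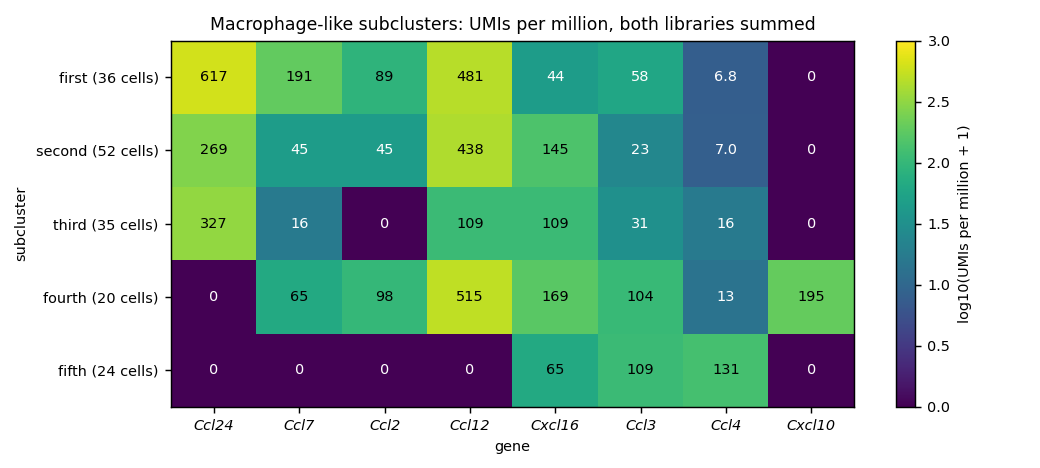
Level of 8 chemokines in the 5 macrophage-like subclusters, both libraries summed, with the CPM printed in each square and colour for log10 of that value plus 1; the subclusters follow the order of the text. *Ccl24* was at 617, 269 and 327 CPM in the first 3 subclusters and at 0 in the other two, and *Ccl4* was highest, at 131 CPM, in the fifth.

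Within macrophage-like cells, some members were found in the same cells, and this was not confined to neighbours on chromosome 11. Of the cells with a *Ccl7* UMI, 12 of 15 and 8 of 13 also had *Ccl12*, against 21.1% and 30.2% of the cells without *Ccl7*. *Ccl24*, on another chromosome, was seen in 11 of 15 and 10 of 13 of the *Ccl7* cells, against 36.8% and 41.3% of the others. *Ccl7* was found in 2 of 7 and 7 of 12 *Ccl2* cells, against 15.5% and 9.38% of the cells without *Ccl2*. *Ccl4* was found in 1 of 8 and 1 of 6 *Ccl3* cells, against 1.20% and 5.71% of the others. Depth and subcluster differ between these cells, and their part in these shares was not tested.

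*Ccl3* and *Ccl4* were low on average and uneven between cells. *Ccl3* was at 48.5 and 64.9 CPM in macrophage-like (29 and 31 UMIs) and 12.5 and 10.8 CPM in microglia-like cells (89 and 59 UMIs), a difference of 1.96 ± 0.47 on the log2 scale (adjusted p = 0.0055). With DESeq2 the adjusted p was 0.063, and over all alternatives it ran from 5.3e-06 to 0.11. *Ccl4* was at 11.7 and 39.8 CPM in macrophage-like (7 and 19 UMIs) and 10.3 and 15.2 CPM in microglia-like cells (73 and 83 UMIs). These values overlapped and the classes did not differ beyond the spread (0.68 ± 0.67, adjusted p = 0.56), while microglia-like cells were above OPC-like cells, next in order, by 3.63 ± 0.75 (adjusted p = 0.00044). For *Ccl3*, microglia-like and fibroblast-like cells (1 UMI) did not differ beyond the spread (adjusted p = 0.20).

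A UMI of *Ccl3* or *Ccl4* was found in 46 of 1122 (4.10%, exact 95% interval 3.02 to 5.43) and 50 of 1024 (4.88%, 3.65 to 6.39) microglia-like cells, and in 9 of 91 and 10 of 76 macrophage-like cells. Most of these microglia-like cells, 32 and 34, had a single UMI. The signal sat in a few cells: 3 and 5 cells with at least 5 UMIs held 101 of 162 and 81 of 142 UMIs. A single cell of library 1 (3197 UMIs in all) held 35 of the 89 *Ccl3* and 45 of the 73 *Ccl4* UMIs, and 1 of library 2 (15548 UMIs) held 14 of 59 and 28 of 83. Both genes were seen in 7 and 7 cells, so that *Ccl4* was found in 21.2% and 21.9% of *Ccl3* cells against 1.19% and 1.81% of the others.

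**Figure D5:**
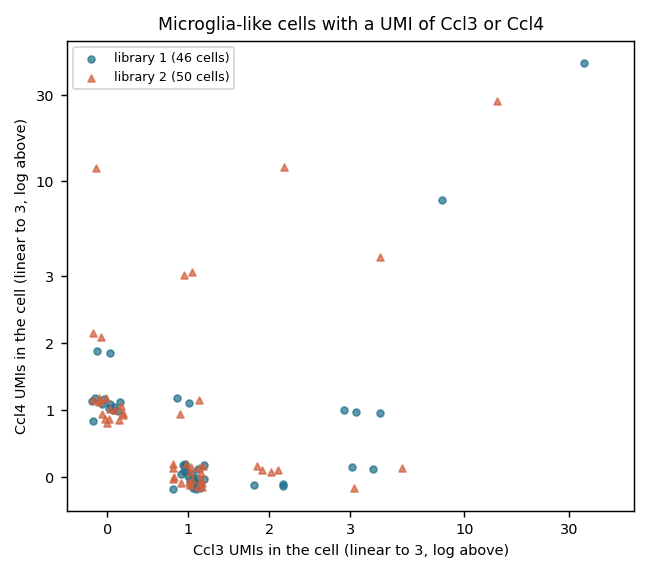
*Ccl3* against *Ccl4* UMIs in each microglia-like cell with at least 1 UMI of either gene (46 cells of library 1 as circles, 50 of library 2 as triangles; axes linear to 3 and logarithmic above, points shifted slightly at random). Of these, 32 and 34 cells held 1 UMI, and the cell furthest to the upper right held 35 *Ccl3* and 45 *Ccl4* UMIs.

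The microglia-like cells with *Ccl3* or *Ccl4* were compared with those without in each library, as a description. Folds were taken after adding 10 CPM to both values, which shrinks them for genes at low levels. Of 5805 genes at 20 CPM or more over all microglia-like cells of each library, 2 were at least 2-fold higher on this scale in both libraries and 0 were lower. *Cd83*, a surface protein of activated myeloid cells, was at 78.2 against 25.0 CPM and 126 against 39.8 CPM. *C5ar1*, the receptor of complement C5a and in no list, was named after its values were seen, at 180 against 75.5 and 133 against 58.2 CPM. *Cd83* was 1 of 4 genes at this level in the list of NF-kappaB targets and cytokines, and the other 3 did not pass the margin. Of these, Nfkbia was at 69.6 against 58.9 and 107 against 87.3 CPM, Il1a at 55.1 against 49.3 and 55.0 against 53.3 CPM, and Icam1 at 69.6 against 56.8 and 100 against 64.8 CPM. Among genes of this list below 20 CPM, Tnf passed the margin in both libraries, at 14.5 against 1.92 and 22.7 against 0.776 CPM. Nfkbiz, Tnfaip3 and Il1b, also below that level, did not. The Tnf values of the cells with *Ccl3* or *Ccl4* rested on few UMIs, and the number of cells holding them was not counted. In library 1 the Tnf difference was 1.04 on the log2 scale, just past the margin. How many of all genes below 20 CPM passed the margin was not counted either, so Tnf has no background beside it. None of 8 microglia markers and none of 5 immediate early genes differed by this margin in both libraries. *Cxcl16* was at 81.1 against 40.5 and 71.2 against 42.9 CPM, and *Ccl12* at 75.4 against 72.7 and 51.8 against 38.8 CPM. The median depth was 7371 against 6876 UMIs and 6050.5 against 5485 UMIs, higher in the cells with a UMI, and its part was not tested.

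*Cxcl10*, an interferon-induced T cell attractant, was close to silent. It was found as 30 UMIs in 1 macrophage-like cell of library 2 (62.8 CPM for the class, with 0 in library 1), as 26 UMIs in 1 progenitor-like cell of library 1 (6.52 CPM), and as 3 and 2 UMIs in endothelial-like and 0 and 3 in microglia-like cells. The other 7 classes held none. Macrophage-like and progenitor-like cells did not differ beyond the spread (2.82 ± 1.29, adjusted p = 0.094; 21.8% of genes tested were higher in macrophage-like cells). The macrophage-like cell, of 9252 UMIs, lay in the subcluster led by S100a9, where macrophage markers were low. It held no UMI of S100a9 itself, which was at 0 in the macrophage-like cells of library 2. None of the *Cxcl10* UMIs of the class therefore lay in the subclusters with macrophage markers. The cell also held 48 UMIs of Ifit3, 43 of Isg15, 17 of Ifit1, 16 of Ifit2 and 10 of Usp18, all interferon-induced genes. It held 5 UMIs of *Ccl2*, 38 of Cd74 and none of the macrophage marker Mrc1.

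The genes with the most similar pattern were sought over the 22 class sums (11 classes in 2 libraries), which share libraries and depth. The nearest was Mill2 for *Cxcl12* (Pearson's r 0.98), Kcnk1 for *Cxcl14* (0.97), Clec4a1 for *Ccl24* (1.00), Cd209d for *Ccl7* (1.00), Itgax for *Ccl12* (0.99), Lyz2 for *Ccl3* (0.98), Phf11b for *Ccl4* (0.99) and Angptl7 for *Cxcl16* (0.95). The nearest to *Ccl2* was Krt80 (0.96) and to *Cxcl10* Cd3d (0.95), each following a value set by 1 cell. Likeness over class sums says nothing of the subclusters within a class, where genes of such a pair can lie in different cells.

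Among the other ligands, 27 genes in the files, 10 passed the filter on low counts and 5 were above every other class, against 33.4% of all genes tested: Pf4 and Ccl8 in macrophage-like, Ccl9 in microglia-like, Ccl19 in fibroblast-like and Cx3cl1 in neuron-like cells. Pf4 reached 3305 and 2889 CPM and Ccl8 361 and 739 CPM in macrophage-like cells, Ccl9 143 and 115 CPM in microglia-like cells, and Cx3cl1, which tethers microglia through its receptor, 337 and 415 CPM in neuron-like cells. Ccl5 was at 0 and 649 CPM in macrophage-like cells and was not tested.

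Of 24 receptor genes, 10 were tested and 9 were above every other class, against 33.4% of all genes tested. Low genes that are spread over classes can drop out at the filter. Neither this count nor that of the ligands is therefore read as an excess. The receptor of *Ccl2*, *Ccl7* and *Ccl12*, Ccr2, was at 142 and 103 CPM in macrophage-like cells. All of its 134 UMIs lay in the subclusters led by S100a9 (109 UMIs in 16 cells) and with lymphocyte markers (25 UMIs in 4 cells). The 3 subclusters with macrophage markers, which held 56, 19 and 1 *Ccl7* UMIs, had no Ccr2 UMI. The remaining *Ccl7* UMIs of the class lay in the subcluster led by S100a9, beside most of the Ccr2 UMIs. Ccr1, which binds CCL3, was at 95.3 and 85.9 CPM in macrophage-like cells. Ackr3, which takes up CXCL12, led in mural-like cells at 317 and 354 CPM, above endothelial-like cells by 1.08 on the log2 scale (adjusted p = 0.0056). Cxcr4, the signalling receptor of CXCL12, had its highest mean in macrophage-like cells and was not above every other class there. Cxcr3, the receptor of CXCL10, was at 38.5 and 16.8 CPM in macrophage-like cells.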

How the data were processed

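Single-cell RNA-seq of adult striatum was analysed in 2 libraries of 1 group. Per the labels and file headers, the authors made the deposited UMI counts per gene and cell with Cell Ranger 4.0 on mm10 (the study's methods name another version); they are raw counts, with no normalization. Cells with at least 300 detected genes were kept (6898 and 5364 of 6978 and 5437 barcodes), and 96 and 159 doublets called by Scrublet in scanpy 1.11.5 were removed. Cells were integrated and clustered with Seurat 5.3.0 (2000 variable genes, 30 principal components), leaving out chemokine, chemokine receptor and cell-cycle genes. A cluster was named when at least 3 markers of a list were raised at least 2-fold and 1 was among its 50 leading genes. These folds were also taken after adding 10 CPM to both values. The clustering resolution was 0.32: at the planned 0.08, macrophage-like cells merged with shallow microglia-like cells, so it became an alternative after the data were seen.

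UMI counts were summed per class and library and tested in edgeR 4.0.16 (R 4.3.3; quasi-likelihood, TMM, filterByExpr, prior count 2, two-sided) for every pair of classes, with Benjamini-Hochberg adjustment over 15173 genes. Library entered as a block, since all classes of a library come from 1 cell suspension. Fold changes are relative to total RNA in a class. On simulated counts for microglia-like against oligodendrocyte-like cells over 15173 genes, 71% of 2-fold and 97% of 4-fold changes were recovered. For fibroblast-like against oligodendrocyte-like cells the shares were 10% and 72%. Unlike the data, the simulation drew all classes from 1 pooled profile, with the same scatter for every gene and no shift between libraries. Macrophage-like against microglia-like cells were not simulated, so these shares do not give the power of that comparison. Alternatives were DESeq2 1.42.0, library sizes alone, no filter, no block, other cell filters and resolution, thinning to 1000 UMIs and leaving out each library. Added after seeing the data were leaving out the top cell and leaving out subclusters with few markers of their own class. For the top cell, each member and listed gene lost its highest count in 1 cell per class and library. That cell could differ between genes and was kept for all other genes. Thinned cells were not used to compare microglia-like cells with and without *Ccl3* or *Ccl4*, since 9 and 12 positive cells remained. Listed ligands and receptors are named from 20 CPM; for likeness, the nearest gene is given. The members and lists were chosen with earlier results of these data known. Intervals cover counting error only. Values of some listed genes are not reported here.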

Additional observations from a re-analysis of the deposited data

How the results depend on the processing

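Of 265 values recomputed under the alternatives, 225 were labelled as kept and 6 as reversed. A difference was kept with the same direction and side of the threshold, or by direction alone with 1 library left out. Levels and shares were kept when they moved by less than their SD, and counts within 1.5 times. With 1 library left out, a level or share always moves by less than the SD of the same 2 libraries. Those labels were fixed in advance and say nothing of robustness. The 6 genes whose leading class was above every other stayed 6 without the library block (no pairing of the replicates). They also stayed 6 without the top cell, and were 5 without the mixed subclusters (macrophage-like and mural-like subclusters with few markers of their class). They fell to 3 with DESeq2 (*Cxcl12*, *Ccl12* and *Cxcl14*), which also called 3 leading over second classes. The cause of this fall was not tested. Among all genes tested, the share meeting the same condition was 29.1% without the block and 33.4% without the top cell. It was 32.4% without the mixed subclusters and 26.9% with DESeq2, against 33.4% in the main setting. With 1 library left out there is no residual spread, so those differences are values with no test: −5.77 and 0.86 on the log2 scale for *Ccl2*, −0.039 and 1.06 for *Ccl4*, −3.45 and 6.51 for *Cxcl10*, 1.65 and 3.42 for *Ccl12*, and 0.30 and 1.76 for *Cxcl16*, the lower coming without library 2 for the first 4 and without library 1 for *Cxcl16*. *Ccl2* in fibroblast-like over macrophage-like cells was also reversed with doublets kept (−0.24) and without the top cell (−5.98), and *Ccl4* without mixed subclusters (−0.86).

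At resolution 0.08 the leading level was 52.9 CPM for *Ccl4*, 179 for *Ccl24*, 820 for *Cxcl14* and 85.2 for *Cxcl16*, and the share of microglia-like cells with *Ccl3* or *Ccl4* was 5.19%; it was 1.06% after thinning and 0.703% at 3 UMIs or more. *Ccl3* was at 33.5 CPM without the top cell and 39.0 without mixed subclusters, where *Ccl24* was at 393. *Cxcl14* was at 976 CPM with at least 500 genes and 993 with under 20% mitochondrial UMIs. *Cxcl16* was at 117 (doublets kept), 110 (500 genes), 113 (mitochondrial limit), 112 (chemokines in the clustering), 94.9 (no top cell) and 107 CPM (no mixed subclusters). Thinned shares of the leading class were 3.06% for *Ccl3*, 4.67% for *Ccl7*, 15.7% for *Ccl12*, 20.1% for *Ccl24*, 66.7% for *Cxcl12*, 45.9% for *Cxcl14* and 8.69% for *Cxcl16*. *Cxcl10* passed the threshold with all genes tested, *Cxcl16* with doublets kept and *Ccl4* at resolution 0.08. The count of listed ligands and receptors, 14, stayed within 1.5 times in all 11 alternatives. Counting error was widest in the fibroblast-like class, with 35 and 21 cells.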
